A study of Hordeum vulgare with 8 samples.

Results

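The genes described here are 3 transcripts of the awn length QTL AL7.1 in barley that are annotated with roles in signalling or protein turnover. MLOC_13716.1 is annotated as a protein phosphatase 2C, MLOC_181.1 as a DDB1- and CUL4-associated factor (DCAF) and AK367995 as a zinc finger protein with a FYVE domain. They were selected by transcript identifier, out of 40344 transcripts in the deposited table of variant sites, and every row of these transcripts was kept whatever its filter value. This gave 23 of 140560 rows, with 2 in MLOC_13716.1, 2 in MLOC_181.1 and 19 in AK367995. The 3 transcripts had been listed by the study because the lines differ in them, so how many of their sites differ between the lines is a description and not a test of the genes.

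RNA was sequenced from shoot apices of a pair of near isogenic lines (NILs) in the background of cv. Morex. Line e35RD has short awns and carries an introgression of the wild barley HID 382 (D allele) at the QTL, between 132.01 and 134.21 cM of the POPSEQ map, and line e35RM has long awns and carries the Morex (M) allele there. Plants were kept under 16 h of light at 22 °C and 8 h of darkness at 18 °C. Pooled apices of Waddington stage 5.5 gave 4 libraries per line. Both lines descend from a single heterogeneous inbred family, DM1-e35R, which was fixed for the wild allele of the row type gene vrs1. The paper states that the families were also fixed at the other awn length QTLs. Wild segments that were fixed in the family are shared by the lines. All genes of the introgression were inherited together, and effects of single genes in it cannot be told apart in this pair. Tissue identity was not checked with marker genes, as the transcript identifiers are not paired with gene symbols in the sources used here.

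Awns are bristle-like extensions of the lemma that photosynthesise and feed the developing grain. Protein phosphatases of type 2C remove phosphate from serine and threonine residues and, in plants, form a large family whose best known members restrain abscisic acid signalling. DCAF proteins are WD40 repeat proteins that bring substrates to the ubiquitin ligase built on cullin 4 and DDB1, which marks them for degradation. FYVE domains bind a phosphoinositide of endosomal membranes. The Arabidopsis hit listed for AK367995, AT1G20110.1, is known in that species as FREE1, which sorts ubiquitinated membrane proteins at endosomes for breakdown in the vacuole.

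Per line and site, the table holds the genotype that was called, how many reads carried either allele, the read depth without duplicates and a phred-scaled genotype quality that ends at 99. Each line has 1 column, so the values have no replicate error and no difference between the lines could be set against the spread between libraries. Tests on reads compare the sequenced pools and not plants, and the intervals given are 95% Clopper-Pearson intervals that cover counting error only. The summed read depth of all sites came to 2050613 for e35RM and 2059680 for e35RD. There were 39013 single-nucleotide sites with a passed filter and a depth of 5 reads or more in both lines, and their median read depth was 27 in both lines. Below, a site is called polymorphic when the lines have opposite homozygous calls. Sites are named by the reference base, the position counted from 1 at the transcript start, and the other base. None of the transcript or protein sequences of the 3 genes was at hand, so the substitutions are given without flanking bases.

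The 3 genes were fixed for different alleles in the lines. Of their 23 listed sites, 10 had passed the filter, and all 10 reached 5 reads in both lines. At 8 of these 10 sites the lines had opposite homozygous calls, with the non-reference base in e35RD at all 8. Over all transcripts this held for 0.307% of the passing sites with a homozygous call in both lines. At the 8 sites together, the 382 allele reads of e35RM all carried the reference base and the 369 allele reads of e35RD all carried the other base. Adjoining sites can lie on the same reads, so these sums count some reads more than once. The remaining 2 passing sites, C1455T in MLOC_181.1 and A631G in AK367995, had the reference base in both lines.

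**Figure D1:**
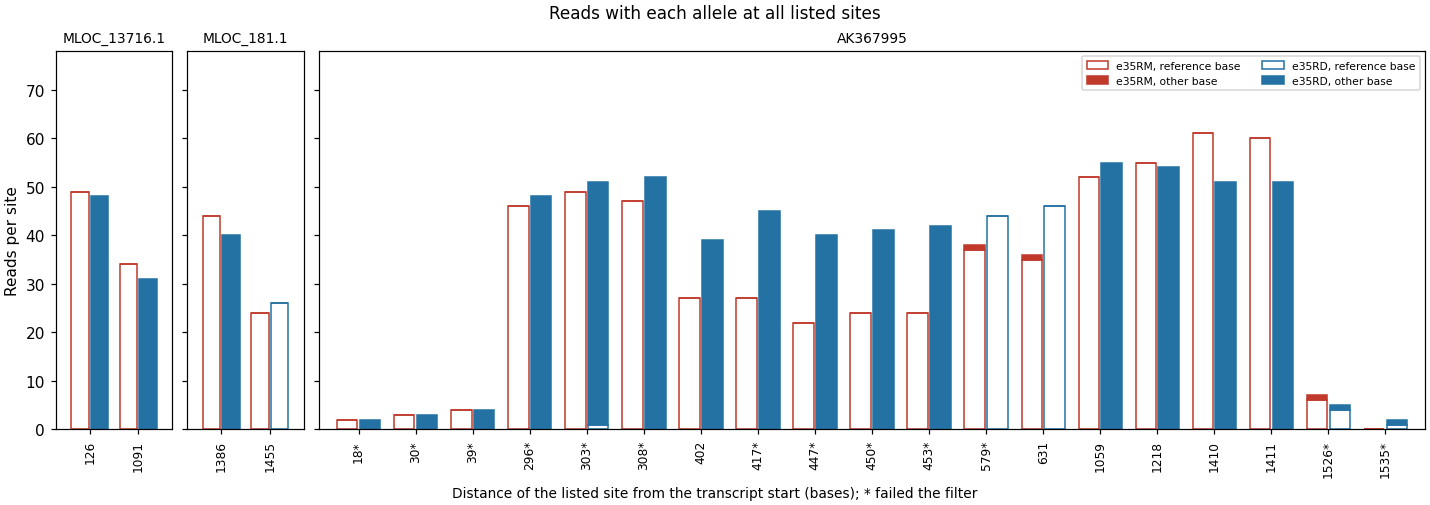
Reads with the reference base (open bars) and with the other base (filled bars) in e35RM (red) and e35RD (blue) at all 23 listed sites of the 3 transcripts, against the distance from the transcript start in bases, with asterisks at sites that failed the filter. Where the lines differ, the bars of e35RM are open and those of e35RD filled, with 1 reference read of e35RD at position 303 as the exception among the sites with opposite homozygous calls.

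The phosphatase gene MLOC_13716.1 lies at 132.011 cM on chromosome 7H, at the low end of the introgression on the map and outside the markers that flank the fine-mapped QTL. Its closest rice and Arabidopsis genes are also described as protein phosphatase 2C family members. At G126A, e35RM had G in 49 of 49 reads and e35RD had A in 48 of 48 reads, with genotype qualities of 99. At G1091A, e35RM had G in 34 of 34 reads and e35RD had A in 31 of 31 reads, with genotype qualities of 96 and 87. Both sites were thus free of reads of the opposite allele in either line. The non-reference share of e35RM at G1091A was 0% (0 to 10.3%) and that of e35RD 100% (88.8 to 100%). Adjusted over all 39013 sites, p was 2.4e-25 at G126A and 4.8e-16 at G1091A (two-sided Fisher's exact test with Benjamini-Hochberg adjustment). Here and below, this test reuses the reads behind the genotype calls, so its p-values are no separate support for a difference.

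G126A falls on the third base of codon 42 when codons are counted from the transcript start, and is listed as synonymous. G1091A falls on the second base of codon 364 and is listed as a change from serine to asparagine (S364N). Serine and asparagine are both polar, and only the former has the hydroxyl group that kinases phosphorylate. MLOC_13716.1 therefore had 1 silent and 1 amino acid change between the lines, and no site of it failed the filter. Any variant without reads, or in untranscribed sequence, is beyond these data.

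MLOC_181.1, the DCAF gene, lies at 134.207 cM, between the flanking markers of the fine-mapped interval. Its closest Arabidopsis gene, AT4G38480.1, is described as a WD40 repeat protein, the fold through which DCAF proteins dock on DDB1. At T1386G, e35RM had T in 44 of 44 reads and e35RD had G in 40 of 40 allele reads, with an adjusted p of 1.6e-21 by Fisher's exact test. The 40 rests on a restored last zero, as the deposited allele depth reads 4, and with allele depths as written the adjusted p was 0.0025 by the same test. The read depth of e35RD at this site was 42, so 2 of its reads were not counted for either allele. This was the only polymorphic site of the gene, and at C1455T, 69 bases further on, 24 reads of e35RM and 26 reads of e35RD all had the reference base. A non-reference share of up to 14.2% in e35RM and 13.2% in e35RD is compatible with these counts at C1455T.

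T1386G is on the third base of codon 462 and is listed as a change from aspartate to glutamate (D462E), a pair of acidic residues that differ by a methylene group. Of the 67 single-nucleotide changes listed for the QTL region, 37 are on the third base of a codon. D462E was the only 1 of these 37 listed as non-synonymous.

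AK367995, the FYVE gene, also lies at 134.207 cM and had the densest differences of the 3 genes. Of its 19 listed sites, 6 had passed the filter, 12 had failed a filter for clusters of SNPs and 1 had low quality. The passing sites A402G, T1059C, A1218G, T1410C and G1411C were polymorphic. At A402G, 27 reads of e35RM had A and 39 reads of e35RD had G. The numbers of reads in e35RM and e35RD were 52 and 55 at T1059C, 55 and 54 at A1218G, and 61 and 51 at T1410C. At the adjacent G1411C they were 60 and 51. At none of these sites did a line have a read of the opposite allele, and the adjusted p ranged from 6.4e-16 at A402G to 2.2e-29 at T1410C (Fisher's exact test).

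T1410C and G1411C are neighbours that belong to different codons. T1410C is on the third base of codon 470 and is listed as synonymous, and G1411C is on the first base of codon 471 and is listed as a change from glycine to arginine (G471R). Glycine is the smallest residue and arginine a large, positively charged one, so of the 3 amino acid changes listed for these genes this is the one that introduces a charge. A402G, T1059C and A1218G are on the third base of their codons and are listed as synonymous. A1218G is listed inside a conserved zinc finger domain of the PHD superfamily, and G471R outside of it. The residue listed at A1218G, aspartate, has no codon in which A to G is silent, so no residue is given for codon 406 here.

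The sites of AK367995 that had failed the filter for clusters of SNPs held more differences of the same kind. With all filter values admitted and at least 5 reads in each line, 12 sites of AK367995 were polymorphic instead of 5, and 15 sites over the 3 genes instead of 8. Over the whole table the share of such calls with e35RD non-reference was 0.632% under this rule. The added 7 sites were C296A, C303G and T308C, which lie within 13 bases, and C417T, T447C, C450G and T453C, of which the last 3 lie within 7 bases. In the table no passing single-nucleotide site had 2 other listed sites within 36 bases of sequence, and of the sites that had failed this filter 78.2% lay within 35 bases together with 2 others. A402G passed, and its next 2 neighbours were spread over a longer distance than that.

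Reads at these 7 sites were as clearly divided as at the passing sites. At C296A, 46 reads of e35RM had C and 48 reads of e35RD had A. At T308C, 47 reads of e35RM had T and 52 reads of e35RD had C. At C303G, all 49 reads of e35RM had C, whereas e35RD had G in 50 reads and C in 1, a non-reference share of 98.0% (89.6 to 100%). The 50 reads of e35RD at C303G and its 40 reads at T447C also rest on a restored last zero, at read depths of 51 and 40. This single read was the only one of the opposite allele at the 15 polymorphic sites. From C417T to T453C the allele reads numbered 22 to 27 in e35RM, all reference, and 40 to 45 in e35RD, all non-reference. The genotype quality was 99 in both lines at the first 3 sites, and 63 to 78 in e35RM and 87 to 99 in e35RD at the other 4.

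Fisher's exact test was run on the same reads that gave the genotype calls, so it adds no separate support. Calls needed an adjusted p under 0.05 and non-reference shares no higher than 0.1 in one of the NILs and no lower than 0.9 in its counterpart. Among passing sites, 8 of the 10 member sites were called, against 0.126% of all sites tested with e35RD non-reference. With all filter values, 15 of 19 member sites with at least 5 reads in each line were called, against 0.099% of all sites tested. Since the lines were selected for opposite alleles at AL7.1, and the genes for differing between them, this contrast was set by the design.

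Position in the codon separates these additional sites into those that must and those that need not alter the protein, provided that the reading frame starts at base 1 of the transcript. For 7 of the 8 changes listed with their amino acids in the 3 genes, the listed residues can be written in the standard code with this frame, and for 0 of 8 with a frame from base 2 or base 3. The exception is A1218G, for which no frame was possible. Over the whole QTL region this frame was possible for 64 of 67 listed changes, against 2 and 0 for the other frames. C296A is on the second base of codon 99 and T308C on the second base of codon 103, and both change the encoded residue in 16 of 16 codons that have the reference base there. C417T, T447C and T453C are on the third base and change it in 0 of 16 codons. C303G and C450G, also on the third base, change it in 8 of 16 codons, so their effect depends on flanking bases that were not at hand.

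If this frame also holds at C296A and T308C, AK367995 had at least 3 amino acid differences between the NILs (codons 99, 103 and 471). The passing sites alone gave 1. C296A and T308C had failed the filter, and no site of the gene upstream of A402G is listed with an amino acid class. Codons 99 and 103 lie far upstream of the site in the annotated domain at codon 406. The residues at codons 99 and 103 were not determined. Over the 15 polymorphic sites of the 3 genes, 11 were on the third base of a codon, 3 on the second and 1 on the first. Transitions made up 10 of the 15, against 66.1% of all 22547 sites where a line was non-reference.

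A further 3 sites at the very start of AK367995 had few reads. At C18T, G30C and C39G, e35RM had 2, 3 and 4 reads and e35RD had as many, all with the reference base in e35RM and all with the other base in e35RD. The direction was that of the sites downstream, at genotype qualities of 3 to 12. At C39G the interval of the non-reference share reached from 0 to 60.2% in e35RM and from 39.8 to 100% in e35RD. These intervals overlap, but overlap of separate intervals is no test of a difference. Fisher's exact test was not run at these 3 sites, as their read depths lay below the minimum set for it. The 3 sites bring those of AK367995 with opposite homozygous calls to 15 when no depth minimum is set. For this rule no share over all transcripts is given, so the 15 is a description only.

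The other 4 sites of AK367995 showed no fixed difference. At T579C, which had low quality, and at A631G, e35RM had 1 non-reference read among 38 and 36 allele reads, or 2.63% (0.0666 to 13.8%) and 2.78% (0.0703 to 14.5%). The 44 and 46 allele reads of e35RD at these sites all had the reference base. A single read is within the interval of both lines and was not a detectable difference (unadjusted p = 0.46 and 0.44, Fisher's exact test). At T1526C both lines were called heterozygous with 1 non-reference read each, beside 6 reference reads in e35RM and 4 in e35RD. At G1535T, e35RM had no read and e35RD 1 read of each allele. These last positions lie where read depth falls to 7 reads or fewer in both lines.

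AK367995 was among the transcripts with the most sites at which e35RD alone was non-reference. With all filter values and at least 5 reads in each line, 205 transcripts had at least 1 such site, and 12 sites was the highest number. It was reached by AK367995, by AK374634, whose closest rice gene is an F-box gene, and by AK249008.1, a gene for a heavy metal binding protein that holds a flanking marker of the fine-mapped interval. With passing sites alone, AK367995 was 1 of 6 transcripts with 5 such sites or more. With all filter values and either line as the non-reference one, polymorphic sites numbered 14 in AK374634 and 12 in AK367995. The number of sites depends on transcript length and read depth, which were not scaled.

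Read depth at the variant sites gave a coarse measure of transcript abundance. In bulk apices, fewer cells with a transcript and less of it per cell cannot be told apart. Depth was averaged over the passing single-nucleotide sites of a transcript where e35RM, e35RD or both had 5 reads or more. Mean read depth of MLOC_13716.1 was 41.5 in e35RM and 39.5 in e35RD, a log2 ratio of e35RM over e35RD of 0.07. It was 34.0 in both lines for MLOC_181.1, a log2 ratio of 0.00. For AK367995 it was 48.7 and 49.3, a log2 ratio of −0.02. The abundance of the 3 transcripts thus hardly differed between the lines by this measure, which counts reads without duplicates. The paper kept duplicates for its own expression analysis. How their removal changed these ratios was not tested.

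At the deepest site of each gene, the interval of the log2 ratio from counting error reached from −0.57 to 0.63 in MLOC_13716.1, from −0.58 to 0.71 in MLOC_181.1 and from −0.30 to 0.82 in AK367995. Each interval belongs to the ratio at that 1 site and not to the mean ratio of the gene. Any ratio within it is compatible with the counts at that site. For 7432 transcripts that averaged 20 reads or more in e35RM or e35RD and had reads in both, log2 ratios had a median of −0.01, and the middle 95% ran from −0.41 to 0.39. The phosphatase gene stood at percentile 73.8 of these transcripts, the DCAF gene at 51.6 and the FYVE gene at 47.8. No test of expression was possible with 1 column per line.

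**Figure D2:**
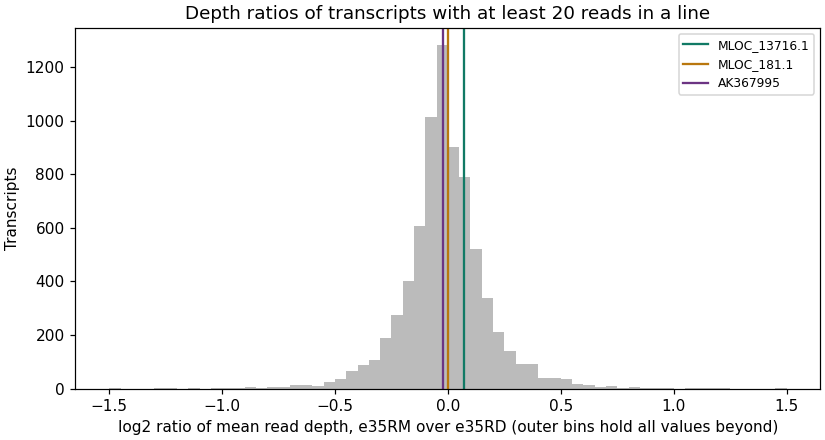
Number of transcripts by the log2 ratio of mean read depth in e35RM over e35RD, for 7432 transcripts that averaged 20 reads or more in e35RM or e35RD, with vertical lines at the 3 genes. All 3 lines stand near 0, at 0.07, 0.00 and −0.02.

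Along AK367995 the ratio was uneven. Read depth was 46 to 49 in e35RM and 49 to 52 in e35RD at the 3 sites from 296 to 308. At the 5 sites from 402 to 453, it was 23 to 27 in e35RM and 39 to 45 in e35RD, and the log2 ratios per site ran from −0.81 to −0.53. Read depth thus dropped in both lines between positions 308 and 402, by more in e35RM than in e35RD. At the 2 sites from 579 to 631 it was 36 to 38 in e35RM and 45 to 46 in e35RD, with log2 ratios of −0.24 and −0.35, so a smaller gap in the same direction remained there. At the 4 sites from 1059 to 1411 it was 52 to 61 in e35RM and 51 to 55 in e35RD, with log2 ratios from −0.08 to 0.26.

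The counting interval of the log2 ratio excluded 0 at C417T (−1.48 to −0.02), T447C (−1.61 to −0.02) and T453C (−1.60 to −0.05), and included it at A402G (−1.29 to 0.21) and C450G (−1.49 to 0.04). These intervals are not adjusted for the number of sites, and the sites share reads. Among 34229 single-nucleotide sites of the table with at least 20 reads in each line, 0.716% had a log2 ratio as low as that of A402G or lower. In either direction, 1.35% had a ratio at least as far from 0. The log2 ratios of the 14 sites of AK367995 at this depth spanned 1.07, against a median span of 0.53 over 729 transcripts with at least 10 such sites, of which 97.4% had a smaller span. The stretch was singled out after its values were seen. A402G is its only passing site, and without the stretch the log2 ratio of the gene was 0.04. With all filter values the ratio was −0.20. Genotype quality at A402G was 81 with 39 reads of e35RD and 78 with 27 reads of e35RM, so quality per read was lower in the line with the other base. The cause of the uneven depth was not tested.

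**Figure D3:**
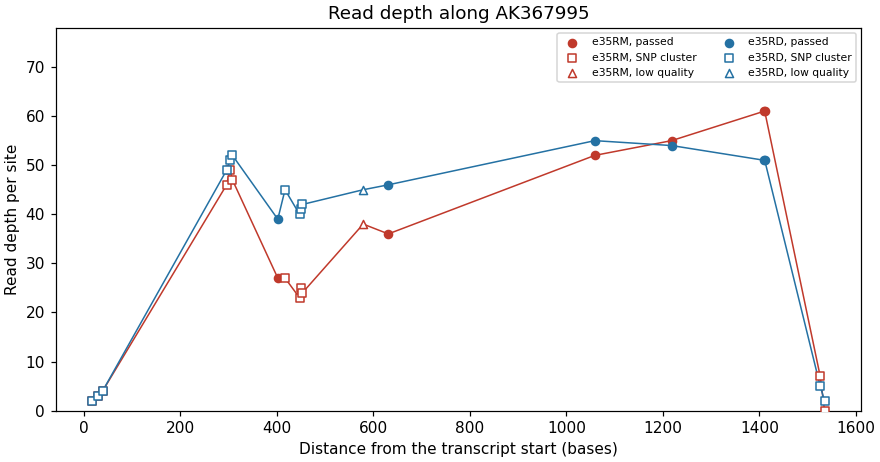
Read depth per site of AK367995 in e35RM (red) and e35RD (blue) against the distance from the transcript start in bases, with filled circles for passing sites, squares for sites that failed the filter for clusters of SNPs and triangles for the site of low quality. The widest gap is from 402 to 453, where e35RM has 23 to 27 reads and e35RD 39 to 45.

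**Figure D4:**
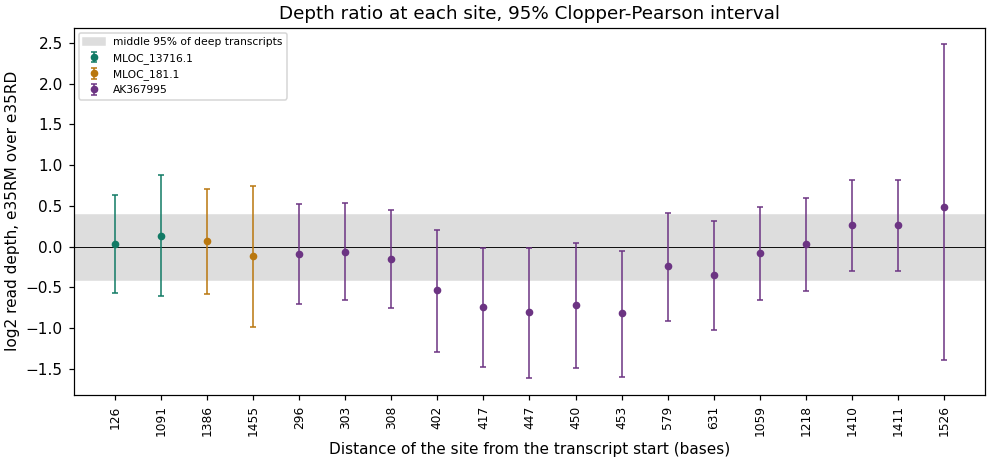
Log2 ratio of read depth in e35RM over e35RD at every site where e35RM or e35RD reached 5 reads and both had reads, by distance from the transcript start in bases, with 95% Clopper-Pearson intervals and a grey band for the middle 95% of deep transcripts. The sites of MLOC_13716.1 and MLOC_181.1 lie within the band, and the 5 sites of AK367995 from 402 to 453 lie below it. Site 1526 of AK367995, with 7 reads in e35RM and 5 in e35RD, lies above it. The band is of ratios of transcript means and the points are single sites, so it is no limit for them.

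Other genes of the introgression with annotations of signalling or protein turnover gave few comparisons. A list of 13 such genes was taken from the annotation of the region, with 6 kinases and other signalling genes, 2 WD repeat genes and 5 genes of ubiquitin ligase parts and proteases. The table listed sites in 9 of them, and 4 had passing single-nucleotide sites that reached 5 reads in both lines. At this depth polymorphic sites were found in 1 of these 4, the F-box gene AK374634, with 6 sites and a mean read depth of 16.6 in e35RM and 17.8 in e35RD. At all 6 sites e35RD was non-reference, and such a difference was found in 64 of the 13586 transcripts with sites of this depth. With all filter values AK374634 had 14 polymorphic sites, with e35RD as the non-reference line at 12 and e35RM at the rest. The allele depth test called 5 of its passing sites, and 10 of its sites with all filter values. The gene related to the DNA damage kinase ATR, MLOC_69623.1, had 10 passing sites of this depth, and both lines were non-reference at each. The plastid signal peptidase gene AK356405 was non-reference in both lines at 6 of 7 such sites. Over all transcripts, 33188 such sites had a homozygous call in both lines. At 22547 of them, counting sites with a single other base, at least 1 line was non-reference. Both genes are mapped to the introgression, and why e35RM is non-reference in them was not tested. AK355711, a RING/U-box gene of the kind that recruits ubiquitin, had 1 site with the reference base and 5 reads in both lines.

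The receptor kinase gene MLOC_72272.1 had no site with 5 reads in each line, as e35RM had 0 to 2 reads and e35RD 8 to 60 reads at its 13 passing sites. At 1 of these sites e35RM, with 1 read, and e35RD had opposite homozygous calls. The receptor kinase gene MLOC_58068.1 had no read in e35RM at any of its sites and at most 6 reads in e35RD. The aspartyl protease gene MLOC_69708.1 had at most 1 read in e35RM and 4 reads in e35RD, with opposite homozygous calls at 1 site. The kinase gene MLOC_36654.6 had at most 3 reads in e35RM and 1 read in e35RD, with no opposite homozygous call. The WD repeat gene MLOC_71601.1 was listed with a single site of low quality, with no read in e35RM and 3 reads in e35RD. No site was listed for the response regulator gene MLOC_12999.1, the SnRK1-interacting protein gene MLOC_3810.1, the coatomer gene MLOC_34618.1 or the papain-type protease gene MLOC_67282.1. The table cannot tell whether such a gene has no variant or no expression. Of the 3 genes described first and the 13 of this list, those with at least 20 reads on average in a line were the 3 genes, MLOC_72272.1 and AK356405.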

How the data were processed

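RNA sequencing reads of 8 libraries (4 per line) were trimmed by the authors with Trimmomatic, aligned with Bowtie2 to the merged high and low confidence barley gene set, freed of duplicates with Picard, and called and filtered with GATK. They deposited 1 table of sites, in which read depth and allele depths are counts of reads without normalization. Genotype quality in the deposited table is a phred-scaled score, and genotype calls and allele depths are text. How the libraries of a line were combined into its column is not given in the sources used here. A further 5 columns of a sample outside this series were not used. The authors' expression values (fold changes and p-values) were not used.

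Calls that a spreadsheet had turned into dates (58250 in e35RM, 58425 in e35RD) were restored, and lost last zeros of allele depths were given back so that the sum came closest to the read depth. Against rows that keep the original notation, calls and read depths were equal at 1980 of 1980 sites and allele depths of both lines at 1976. Decoding and test were also run on simulated allele depths. These lost last zeros in the way the decoding assumes, so they do not test that assumption. Python 3.11.15 and scipy 1.17.1 were used. Fisher's exact tests were adjusted over all sites with at least 5 reads in each line. Map positions, annotations, domains and amino acid classes are those of the authors' tables; codons were counted from base 1. The members and gene lists were chosen with earlier results of these data known. All rows of the 3 genes and all genes of the list are named; AK249008.1 was named after its values were seen. Alternatives were depth minimums of 1, 10 and 20, genotype qualities of 20 and 60, all filter values, insertions and deletions, allele shares, other handling of allele depths, Bonferroni adjustment and other forms of the depth ratio.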

Additional observations from a re-analysis of the deposited data

How the results depend on the processing

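The 8 polymorphic sites of the 3 genes became 15 with all filter values, and 18 with all filter values and at least 1 read in each line, the latter chosen after the data were seen. No share over all transcripts is given beside the 18. The sites called by the allele depth test likewise became 15 with all filter values. All added sites lie in AK367995 and had been removed by the filter for clusters of SNPs. Under the other depth, quality and share settings tried, the count remained 8. With allele depths as written, without restored zeros, 8 sites were still called, and the adjusted p of T1386G in MLOC_181.1 became 0.0025 (Fisher's exact test). The depth ratios moved by less than the width of the counting interval at the deepest site in every setting tried. They moved most in AK367995 with the deepest site alone (0.26). No paired analysis was possible because each line has 1 column, which carries no replicate number; for the same reason no library could be left out. Depth limits what could be seen at the ends of AK367995, where a line had at most 7 reads.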
